A study of Rattus norvegicus with 16 samples.

Results

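The kidney cortex of young male rats was compared with that of young female rats by RNA sequencing of 4 libraries from each sex. These 8 libraries were taken from the 16 of the series by the sex and age in their labels, and the other 8 come from old males and old females, 4 each. All 16 are rats labelled with the genotype Homo, which the labels do not explain, and with no treatment, and age is given only as young or old. Diabetic kidney disease is named in the series title, yet the labels call none of these rats diabetic and give no strain. The tissue label reads kidney and the design text names the cortex. Nothing states that each library came from its own animal, and p-values therefore rest on a spread between samples that could be technical. Genes on chromosomes X and Y were left out of the comparison, so their own unequal dosage does not enter the counts of genes given here.

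The proximal tubule, which makes up most of the cortex, takes back filtered glucose, phosphate and amino acids and secretes drugs and organic ions through carriers of the SLC22, SLCO and ABC families. It burns fatty acids in mitochondria and peroxisomes and holds cytochrome P450 and conjugating enzymes. In rats many of these carriers and enzymes are known to depend on androgens and on the sex-specific pattern of growth hormone release. Tissue from below the cortex, with its collecting ducts and thin limbs, carries a different set of mRNAs, so bulk values also depend on how much of that tissue a sample holds.

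Young male libraries held 13416132 to 20274749 counts and young female libraries 11570788 to 14736236 counts. The Y-linked genes Eif2s3y (72.1 to 80.2 CPM of all counts) and Kdm5d (22.9 to 25.8) were present in all young male libraries and had 0 counts in all young female libraries, so no sex label was contradicted. Markers of podocytes (15 of 15) and of the S1 and S2 segments of the proximal tubule (15 of 16), cells of the cortex, passed the filter on low counts. Markers of the thick ascending limb (14 of 14) and of the inner medulla (9 of 12) passed it too, so the filter does not tell cortex from whole kidney. The first principal component (68.7% of the variance) separated the sexes. Replicate 4 of both sexes, whose label identifiers lie in a higher number range, lay apart from the other 6 on the second component (-24.4 in the male and -26.4 in the female, against 5.45 to 10.48), which held 9.77%. Without both of them 1976 genes were higher and 2153 lower in young males. The mitochondrial genome supplied 22.3 ± 2.57% of counts in young males and 18.8 ± 0.520% in young females (SD, n = 4 each).

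Of 13128 genes tested with edgeR's quasi-likelihood test, 2007 were higher (15.3%) and 2118 lower (16.1%) in young males at a Benjamini-Hochberg adjusted p under 0.05, so 31.4% passed in one direction or the other. Counts of list members given below are to be set against these shares. At least 2-fold differences were found for 427 higher genes (3.25%) and 579 lower ones (4.41%). In 31.7% of the genes all 4 libraries of one sex lay above all 4 of the other. The even split depends on the scaling. When libraries were scaled by their totals without TMM factors (0.901 to 0.976 in young males and 1.03 to 1.09 in young females) the median of all genes moved to -0.17 on the log2 scale, and 1065 genes were higher and 3928 lower.

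The markers of the inner medulla, the innermost part of the kidney, were lower in young males for 8 of 9 tested genes and higher for 1. Slc14a2, which encodes the urea carrier of the deep collecting duct, had 2.47, 0, 0.0544 and 3.31 CPM (counts relative to library size, with TMM scaling) in the young males. Its values in the young females were 53.2, 58.0, 22.2 and 33.0 CPM, so that the lowest female lay well above the highest male (log2 -4.90, SE 0.639, adjusted p = 0.000221). Aqp4, a water channel of the basolateral membrane of the collecting duct, stood at 24.5, 32.2, 29.2 and 21.4 CPM in young males, against 120.1, 74.1, 43.0 and 223 CPM in young females (log2 -2.10, SE 0.414, adjusted p = 0.00308). The female libraries were themselves uneven for this gene, with replicate 4 highest and replicate 3 lowest. Fst, which encodes the activin antagonist follistatin, had 6.48, 2.32, 4.95 and 5.51 CPM in young males and 22.1, 18.0, 15.7 and 13.9 CPM in young females (log2 -1.84, SE 0.247, adjusted p = 0.000271). Other lower members were Slc6a12, the betaine carrier (-2.06), Akr1b1, aldose reductase (-1.89), the ephrin receptor gene Epha7 (-0.97) and the small heat shock protein gene Cryab (-0.51). Slc6a12 and Akr1b1 are known targets of the response to high salt concentration around cells. The member that was higher in young males was Bcl6 (1.59), which encodes a transcriptional repressor that is known to be higher in male rodent liver. The median of the list was -1.89, against 0.00058 over all genes tested.

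The mean log2 CPM of the 9 markers, used as a score of inner medulla content, was 3.57, 2.61, 2.99 and 3.29 in the 4 young male libraries and 5.02, 4.99, 4.44 and 4.93 in the 4 young female libraries. No male reached the lowest female, and the difference was -1.73, with means of 3.12 ± 0.410 in males and 4.85 ± 0.276 in females (SD, n = 4 each). The difference was -1.70 without the salt-responsive Akr1b1 and Slc6a12, and -2.15 without Bcl6. In bulk tissue fewer cells of a type and less RNA of that type per cell cannot be told apart. Of 13 markers of the urothelium and papilla 8 were too low to test, 2 of the other 5 were lower in young males and 0 higher. Psca, a surface antigen gene of the urothelium, had 0.802, 0.232, 0.435 and 0.630 CPM in young males and 13.3, 5.93, 1.77 and 8.88 CPM in young females (log2 -3.81, SE 0.607, adjusted p = 0.000826), and Upk1a, a urothelial plaque gene, had a log2 of -2.64 (SE 0.575). The summed CPM of that list ranged from 21.6 to 30.3 in young males and from 29.3 to 64.3 in young females, so the groups overlapped.

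**Figure D1:**
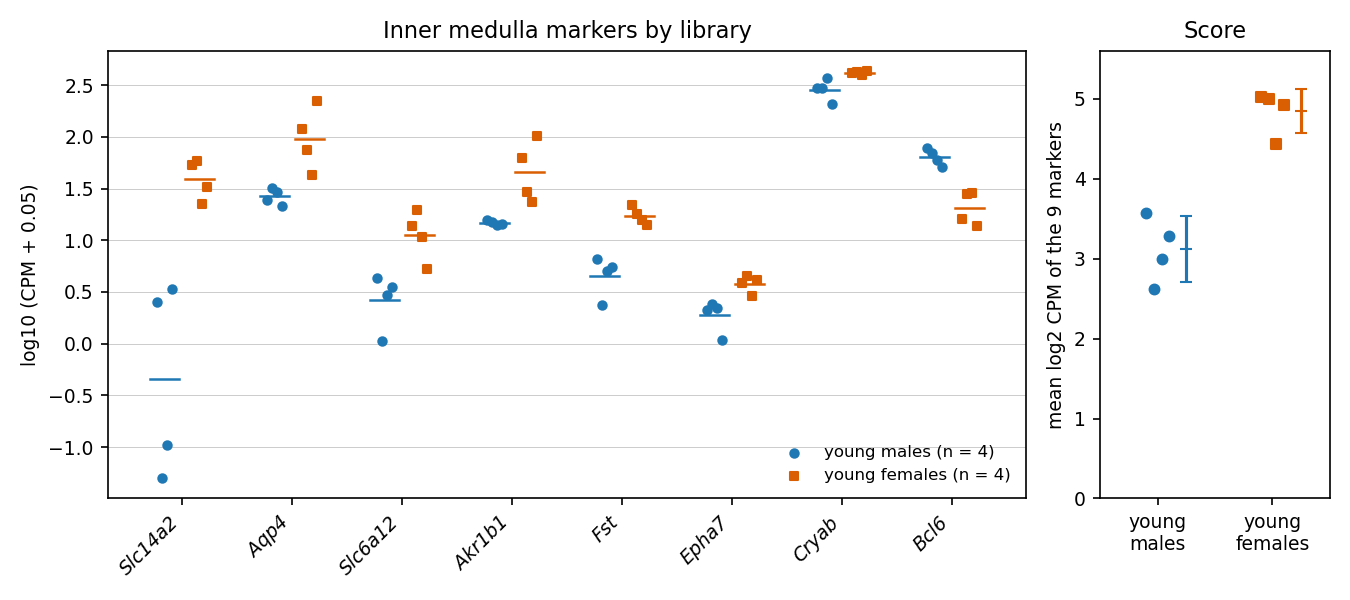
Left: 8 of the 9 inner medulla markers in each young library, as log10 of CPM plus 0.05, males (circles) left of females (squares), lines at the mean of the log values. Right: the mean log2 CPM of the 9 markers in each library, with the mean ± SD beside the points; the males lie between 2.61 and 3.57 and the females between 4.44 and 5.02.

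Differences that follow inner medulla content were set apart from the others by adding the score to the fit. Within the 8 young libraries the score and sex are nearly the same variable, the standard errors grew 3.09-fold in the median, and 89 genes remained higher and 55 lower (0.678% and 0.419% of those tested). The score also varies among the 8 old libraries. On the scale of all 16 it ran from 1.81 to 2.49 in old males and from 2.04 to 3.64 in old females. A fit of all 16 libraries, chosen after the data were seen, takes its slope from the spread within each group of sex and age. In that fit 671 genes were higher and 609 lower in young males, of 13925 tested (4.82% and 4.37%), standard errors grew 1.68-fold in the median, and 1223 of the 4125 calls (29.6%) were kept. The values moved less than the calls, since 4050 of the 4125 genes kept their direction and 3084 (74.8%) kept at least 66.7% of their log2 difference. Of the 284 genes of the metabolism and transport lists that had passed, 203 (71.5%) kept that much, 279 kept their direction and 109 still passed. Of the 17 markers of the thick ascending limb and of principal and intercalated cells that had passed, 2 (11.8%) kept that much and 0 passed by edgeR's test, none at an unadjusted p under 0.05 either. These sets overlap, since the markers Slc12a1 and Aqp6 are also among the 284, as is Aqp4, a gene of the score. The 11 inner medulla and urothelium genes that had passed are largely the score itself, so their shift is built in, and 2 of them (18.2%) kept that much. Slc14a2 stood at 0.48 and Psca at -0.12 in this fit. The same slope was assumed for both ages and sexes. The old females whose identifiers begin with OP had scores of 2.04 and 2.05 and those with DS 3.51 and 3.64. Among old females the score and the prefix therefore cannot be told apart. Scores spread more widely in old females than in any other group, so each 16-library value with the score rests largely on that gap. Of 126 named genes that had passed, 86 passed in the 16-library fit with the score and 40 in both fits with it. Below, values with the score are those of the 16-library fit unless the 8 libraries are named. They are given for only some of the named genes, so a gene printed without one may have lost its call. Acadm, Acsm3, Cyp4a2 and Pecr, for example, did not pass in 8 libraries (adjusted p of 0.279, 0.0834, 0.0658 and 0.0583). Slc7a12, Pfkp, Slc12a7 and Aqp7 passed in neither fit with the score.

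**Figure D2:**
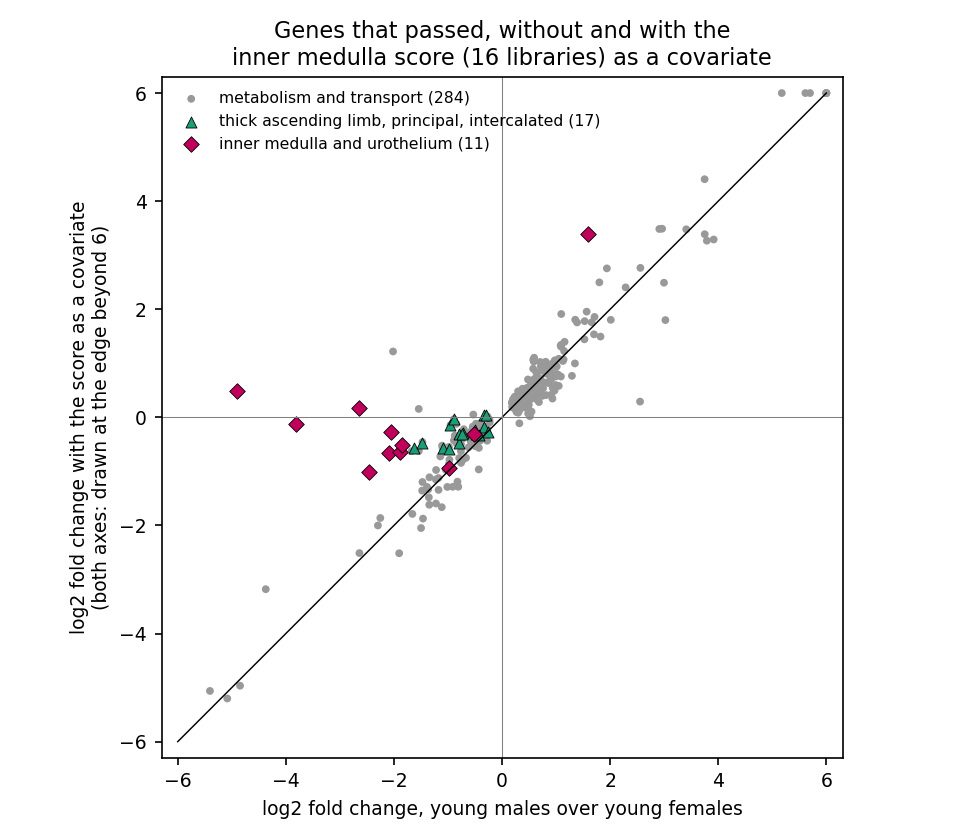
Log2 fold change of young males over young females in the 8-library fit (x axis) and in the 16-library fit that includes the score as a covariate (y axis), for genes that passed in the 8-library fit, with the line of equal values. Metabolism and transport genes (grey circles, 284) lie mostly along the line, while markers of the thick ascending limb, principal and intercalated cells (green triangles, 17) and of the inner medulla and urothelium (red diamonds, 11) lie mostly nearer to 0 on the y axis. A gene held by several sets is drawn in each.

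Carriers of organic ions gave some of the widest differences between the sexes. Of 13 tested SLC22 genes 7 were higher and 3 lower in young males, with a median of 0.64 (0.00058 over all genes). Slc22a22, which encodes a prostaglandin-specific organic anion carrier of the proximal tubule, had 204, 222, 223 and 293 CPM in young males and 0, 0.244, 0.0709 and 0 CPM in young females (adjusted p = 3.09e-09). No log2 difference is given for it, because its young female libraries hold too few counts for the size to be read. Slc22a2, which encodes the cation carrier OCT2, had 981, 899, 1047 and 1011 CPM in young males and 55.0, 71.1, 91.9 and 74.6 CPM in young females, a fitted difference of 13.5-fold (log2 3.75, SE 0.142, adjusted p = 3.59e-08). In both genes every male lay far above every female. The family also held the reverse pattern. Slc22a7, which encodes the anion carrier OAT2, had 7.88, 8.34, 8.97 and 9.92 CPM in young males and 323, 239.8, 366 and 262 CPM in young females (log2 -5.08, SE 0.153, adjusted p = 9.9e-09). Slc22a13, which encodes a urate and nicotinate carrier, had 4.21, 1.93, 4.46 and 3.15 CPM in young males and 161, 163, 115 and 157 CPM in young females (log2 -5.40, SE 0.206, adjusted p = 3.59e-08). With the score as a covariate all 4 genes passed in 16 and in 8 libraries, and Slc22a2, Slc22a7 and Slc22a13 stood at 3.39, -5.20 and -5.06 in the 16.

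Of the 19 tested SLCO, ABC and MATE genes 5 were higher and 7 lower. Slco1a1, which encodes the anion carrier OATP1A1 of the brush border, had 319.5, 338, 379.9 and 508 CPM in young males and 1.06, 1.14, 1.42 and 1.001 CPM in young females (log2 8.38, SE 0.204, adjusted p = 2.41e-09). Its reads may be shared with near copies in the Slco1a cluster. Abcg2, an efflux pump for urate and drugs, had 201, 228, 266 and 198 CPM in young males and 55.7, 61.0, 57.2 and 47.4 CPM in young females (log2 2.01, SE 0.110, adjusted p = 4.69e-07). Abcc5, an efflux pump for nucleotides and conjugates, went the other way, with 12.4, 9.73, 7.94 and 12.2 CPM in young males and 27.4, 32.6, 25.1 and 25.3 CPM in young females (log2 -1.39, SE 0.147, adjusted p = 5.13e-05). With the score in 16 libraries all 3 passed, Abcg2 at 1.80 and Abcc5 at -1.29, and in 8 libraries Abcc5 did not (-0.61, adjusted p = 0.7).

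**Figure D3:**
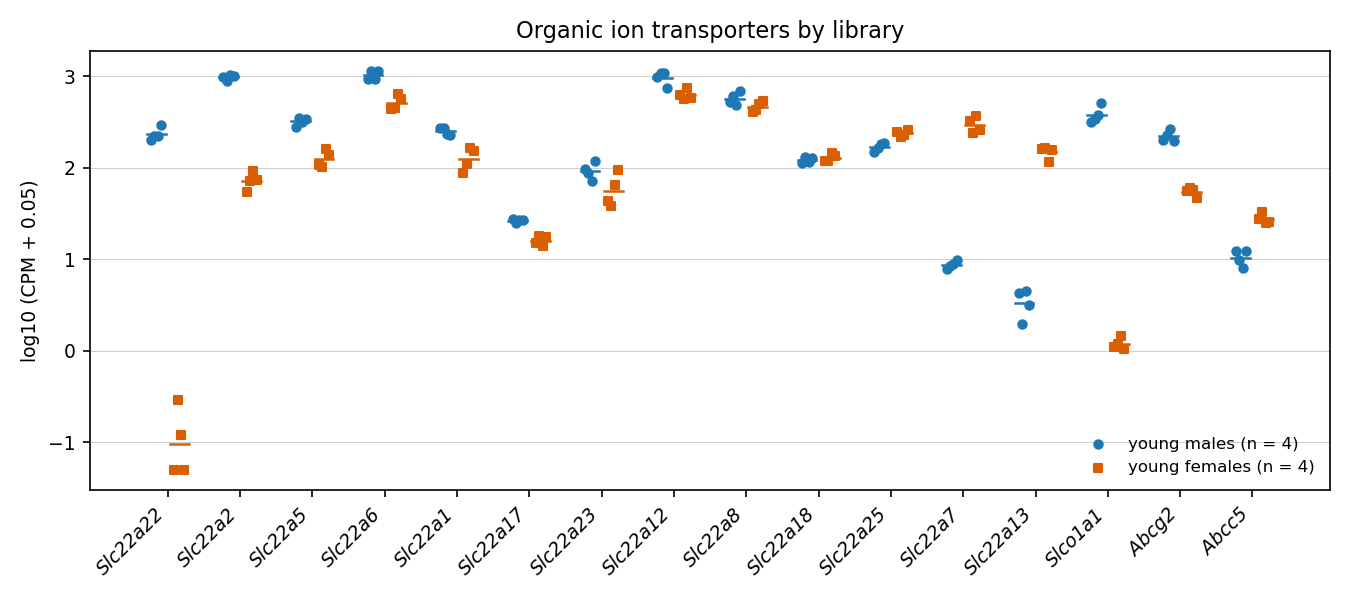
Levels of the 13 tested SLC22 genes and of Slco1a1, Abcg2 and Abcc5 in each young library, as log10 of CPM plus 0.05, males (circles) left of females (squares), lines at the mean of the log values. Males lie above females at the left end (Slc22a22, Slc22a2) and below them for Slc22a7 and Slc22a13.

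The promoters of the 2 metabolism or transport genes with the largest difference in each direction, Cyp2c11 and Slc22a22 (higher in young males) and Slc22a13 and Slc22a7 (lower), are printed because these genes mark the ends of the range. Each window runs from 250 bases before to 50 bases after the start of the gene in RefSeq's annotation of the build GRCr8, which is not the build of the deposited counts. They are chr1:246174966-246175265 on the plus strand for Cyp2c11, chr7:90639646-90639945 on the minus strand for Slc22a22, chr8:127811701-127812000 on the minus strand for Slc22a13 and chr9:22045248-22045547 on the plus strand for Slc22a7. Capitals mark the hexamer AGAACA or its reverse complement TGTTCT, the half-site bound by the androgen and glucocorticoid receptors.
Cyp2c11: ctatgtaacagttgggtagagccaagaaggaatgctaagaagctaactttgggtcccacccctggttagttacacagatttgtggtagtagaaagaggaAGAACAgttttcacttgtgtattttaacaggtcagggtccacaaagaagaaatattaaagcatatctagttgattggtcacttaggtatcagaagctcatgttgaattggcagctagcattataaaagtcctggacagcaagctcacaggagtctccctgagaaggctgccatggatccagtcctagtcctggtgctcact
Slc22a22: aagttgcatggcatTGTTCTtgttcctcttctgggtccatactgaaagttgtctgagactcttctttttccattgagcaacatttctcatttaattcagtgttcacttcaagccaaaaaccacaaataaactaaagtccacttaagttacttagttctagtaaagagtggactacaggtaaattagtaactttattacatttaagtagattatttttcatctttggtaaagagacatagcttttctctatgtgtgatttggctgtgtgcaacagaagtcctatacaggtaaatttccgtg
Slc22a13: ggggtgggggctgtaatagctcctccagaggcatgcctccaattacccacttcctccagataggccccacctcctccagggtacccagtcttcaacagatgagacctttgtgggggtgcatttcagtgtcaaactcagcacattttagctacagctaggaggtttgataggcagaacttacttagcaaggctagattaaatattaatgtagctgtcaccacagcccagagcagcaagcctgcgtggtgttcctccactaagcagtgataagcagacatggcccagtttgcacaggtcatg
Slc22a7: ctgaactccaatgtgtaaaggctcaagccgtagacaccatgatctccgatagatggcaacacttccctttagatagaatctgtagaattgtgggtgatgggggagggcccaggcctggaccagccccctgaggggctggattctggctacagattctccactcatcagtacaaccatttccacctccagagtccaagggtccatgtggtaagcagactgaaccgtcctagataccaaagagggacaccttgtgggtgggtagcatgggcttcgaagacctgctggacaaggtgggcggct
The hexamer was found once in the windows of Cyp2c11 (first base at -151) and Slc22a22 (-236), and not in the windows of Slc22a13 and Slc22a7. It was present in 20.7% of all 33469 promoters and in 12.4% of those of the genes tested. Among promoters of genes at least 2-fold higher in young males it was present in 15.96% of 332, and among those at least 2-fold lower in 17.0% of 436. These are matches of letters in a short window, and no binding was measured.

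Cytochrome P450 genes outside the CYP4 family, which oxidise steroids, lipids and drugs, showed 10 of 20 tested members higher in young males and 3 lower. Cyp2c11, the steroid hydroxylase known as the male-specific P450 of rat liver, had 97.6, 134, 115 and 112 CPM in young males and 0 counts in every young female library. With 3 counts over the 4 female libraries as the floor it was at least 2111-fold higher (adjusted p = 5.67e-08). Cyp2d5 had 179.7, 169, 194 and 198 CPM in young males and 3.90, 5.04, 2.20 and 3.20 CPM in young females (log2 5.70, SE 0.173, adjusted p = 9.9e-09), and Cyp2d1 had a log2 of 2.91 (SE 0.134). The CYP2D genes are near copies of each other and may share reads. Cyp1a1, the dioxin-inducible hydroxylase, was lower in young males, with 0.468, 0.309, 0.381 and 11.9 CPM in males and 49.1, 67.0, 34.0 and 99.5 CPM in females (log2 -4.37, SE 0.798, adjusted p = 0.00195). Male replicate 4 lay far above the other 3 males for this gene, and without it the log2 was -7.29. With the score as a covariate Cyp1a1 did not pass, at -3.18 in 16 libraries and -0.87 in 8 (adjusted p of 0.0738 and 0.952).

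Among the CYP4 genes, whose enzymes hydroxylate fatty acids, 1 of 10 was higher and 4 were lower. The higher one was Cyp4a2, an arachidonate hydroxylase that makes 20-HETE, with 9368, 10779, 11104 and 8361 CPM in young males and 471, 479, 1078 and 596 CPM in young females (log2 3.92, SE 0.272, adjusted p = 2.62e-06). It may share reads with Cyp4a3. Cyp4b1 had 10.1, 8.34, 8.54 and 9.999 CPM in young males and 364, 249.8, 236 and 215 CPM in young females (log2 -4.85, SE 0.178, adjusted p = 3.31e-08), and Cyp4a8 averaged 1069 ± 93.2 CPM in males and 2493 ± 170.1 CPM in females (log2 -1.22, SE 0.0861, adjusted p = 2.94e-06). So a single family held both a member 15.1-fold higher (Cyp4a2) and one 28.8-fold lower (Cyp4b1) in young males, by the fitted values.

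Conjugating enzymes, which attach sulfate, glucuronate or glutathione, were higher for 16 and lower for 11 of 32, with 27 of 32 past the threshold. Sult1b1, a sulfotransferase for phenols and thyroid hormone, averaged 139 ± 26.8 CPM in young males and 10.04 ± 2.11 CPM in young females (SD, n = 4 each, log2 3.79, SE 0.170, adjusted p = 1.14e-07). The glutathione transferase Gsta2 stood at 96.0 ± 4.99 CPM in males and 32.4 ± 2.33 CPM in females (log2 1.57, SE 0.0693, adjusted p = 1.1e-07), with possible sharing of reads within its family. Sult2b1, a cholesterol sulfotransferase, was lower (log2 -1.47, SE 0.0740, adjusted p = 2.65e-07). Steroid and retinol dehydrogenases and reductases were higher for 12 and lower for 7 of 27. Rdh16, a retinol dehydrogenase, had 217, 229, 217 and 261 CPM in young males and 17.7, 16.2, 26.4 and 26.4 CPM in young females (log2 3.41, SE 0.160, adjusted p = 1.63e-07). Hsd17b1, which reduces estrone to estradiol, was low in both sexes, at 5.44 ± 1.38 CPM in males and 0.395 ± 0.223 CPM in females (log2 3.75, SE 0.342, adjusted p = 1.86e-05). Akr7a3, an aldehyde reductase, rose as well (log2 1.82, SE 0.122, adjusted p = 1.96e-06).

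Genes of mitochondrial fatty acid oxidation were mostly higher in young males, with 15 of 22 higher and 2 lower and a median of 0.40. Acadm, the medium-chain acyl-CoA dehydrogenase, had 742, 791, 845 and 867 CPM in young males and 430.3, 426, 474 and 448 CPM in young females (log2 0.87, SE 0.0704, adjusted p = 7.98e-06). The groups were tight, and the lowest male stood above the highest female by more than the range within either sex. Acsm3, which activates medium-chain fatty acids, averaged 341 ± 43.8 CPM in males and 105 ± 9.20 CPM in females (log2 1.70, SE 0.101, adjusted p = 8.18e-07). With the score as a covariate the median of the list was 0.38, and 8 members passed as higher. In 8 libraries with the score 0 of 22 passed by edgeR's test and 5 had an unadjusted p under 0.05.

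Of 24 genes of peroxisomal oxidation 11 were higher and 3 lower. Pecr, the peroxisomal enoyl-CoA reductase, had 217, 234, 222 and 409.8 CPM in young males and 41.5, 49.999, 43.2 and 48.9 CPM in young females (log2 2.56, SE 0.199, adjusted p = 5.97e-06), with male replicate 4 far above the other males. Acox3, which oxidises branched-chain acyl-CoAs, averaged 66.6 ± 0.872 CPM in males and 35.5 ± 1.94 CPM in females (log2 0.91, SE 0.0581, adjusted p = 1.36e-06). Acox2, which oxidises bile acid intermediates, was lower, with 15.8, 15.5, 15.4 and 16.4 CPM in young males and 87.6, 67.2, 84.0 and 71.4 CPM in young females (log2 -2.30, SE 0.0933, adjusted p = 5.44e-08).

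**Figure D4:**
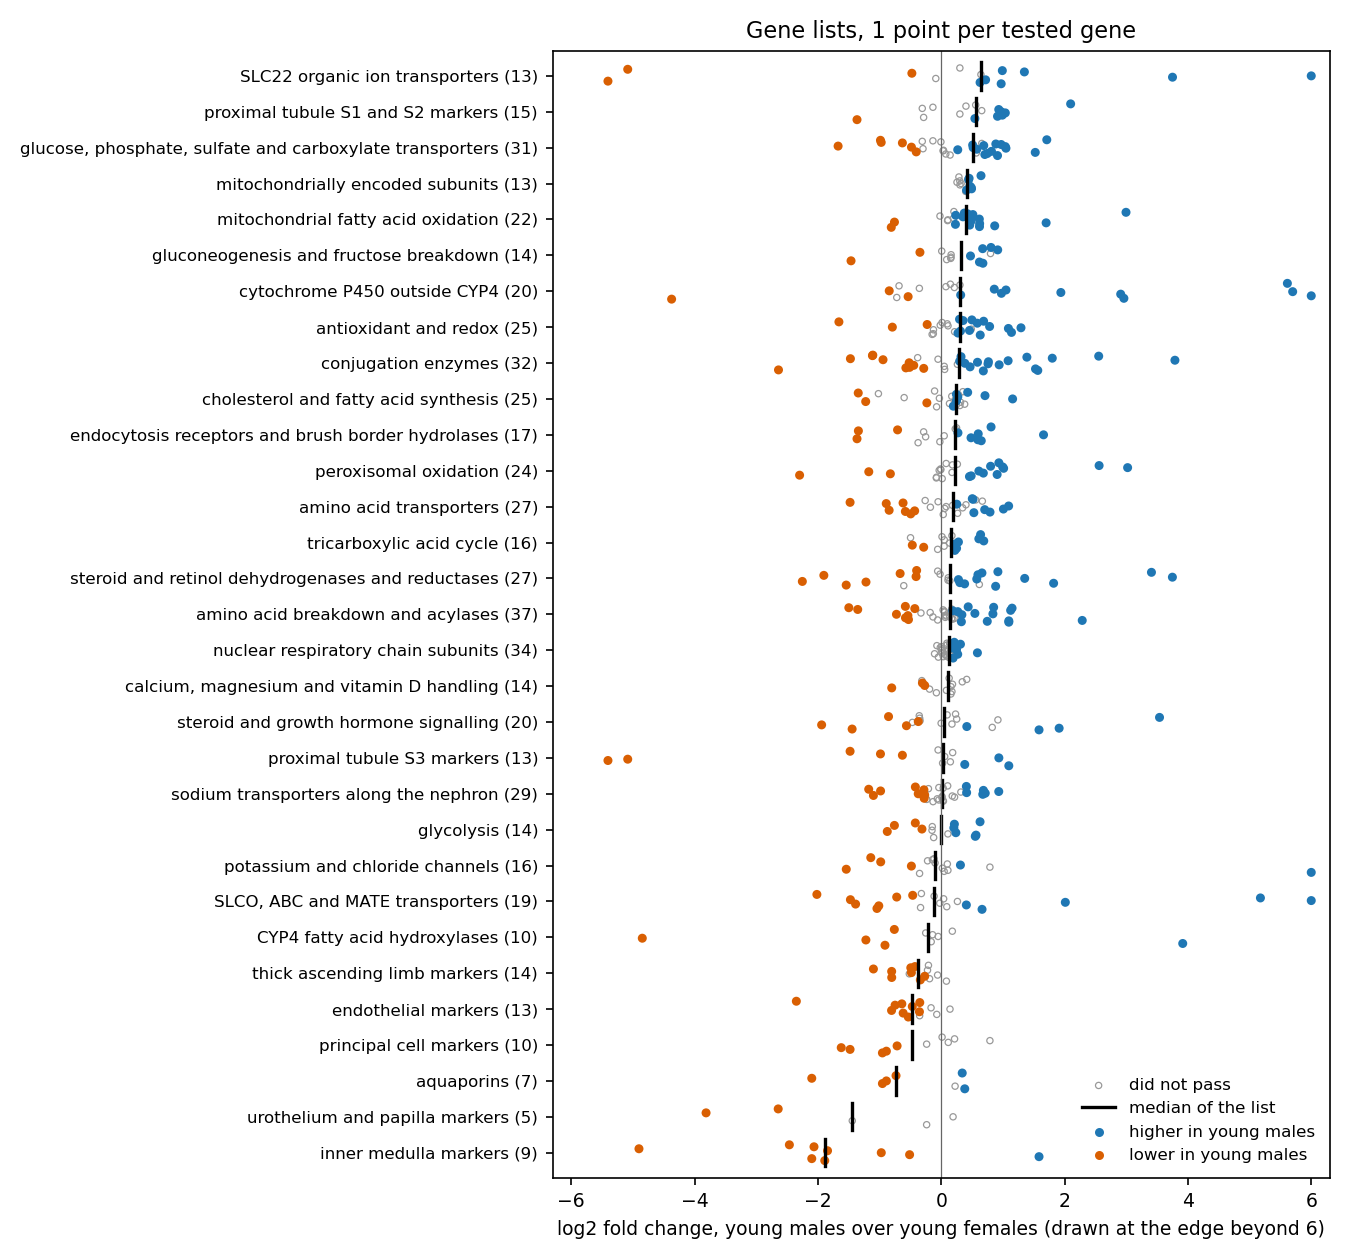
Log2 fold change of young males over young females for each tested gene of 31 lists, ordered by the list's median (black bar), with the number of tested genes in brackets. Filled points passed (blue higher, orange lower in young males) and open points did not. SLC22 carriers have the highest median (0.64) and inner medulla markers the lowest (-1.89), and most metabolism and transport lists hold genes that passed in both directions.

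The respiratory chain moved by less. Of 34 nuclear subunit genes 11 were higher and 0 lower, with a median of 0.12, and Ndufa4, a complex IV subunit, had the smallest p (log2 0.59, SE 0.0706, adjusted p = 0.000127). With the score 1 of the 34 passed, as higher (median 0.18), and in 8 libraries with it 0 passed by edgeR's test (median -0.028). Sdhc and Ndufa10 of complexes II and I were at 0.31 and 0.27 and lost their calls with library totals alone and with the score as a covariate. Of the 13 mitochondrially encoded genes 7 were higher and 0 lower (median 0.41), such as Mt-nd4 (log2 0.44, SE 0.105, adjusted p = 0.00845), Mt-nd4l (0.45) and Mt-co2 (0.49). Mt-co2 had 13248, 16963, 15768 and 12001 CPM in young males and 9712, 10527, 10766 and 10389.5 CPM in young females, and male replicate 4 was the lowest of the males. With the score as a covariate 0 of the 13 passed by edgeR's test, and 0 had an unadjusted p under 0.05. The summed share of these genes in all counts moved in the same direction, and its part in the result was not tested.

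In the tricarboxylic acid cycle and its feeders 7 of 16 genes were higher and 2 lower, including pyruvate carboxylase, Pc (662 ± 28.9 CPM in males and 410.5 ± 49.5 CPM in females, log2 0.69, SE 0.0867, adjusted p = 0.000175), Suclg2 (0.64) and the kinase gene Pdk2 (0.61). Of 25 antioxidant genes 13 were higher and 3 lower. Gpx1, the cytosolic glutathione peroxidase, had 735, 797, 686 and 839 CPM in young males and 278, 334, 363 and 414 CPM in young females (log2 1.14, SE 0.116, adjusted p = 3.79e-05), and the peroxiredoxin gene Prdx1 had a log2 of 0.78 (SE 0.0662). The secreted superoxide dismutase gene Sod3 was lower, at 251 ± 21.6 CPM in males and 793 ± 117 CPM in females (log2 -1.66, SE 0.109, adjusted p = 1.62e-06).

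Of 14 genes of glucose production 6 were higher and 2 lower. Slc37a4, the glucose-6-phosphate carrier of the endoplasmic reticulum, averaged 283 ± 15.7 CPM in young males and 149.7 ± 26.8 CPM in young females (log2 0.92, SE 0.113, adjusted p = 0.000148), and the triokinase gene Tkfc of fructose breakdown had a log2 of 0.81 (SE 0.0712). Fbp2, the muscle form of fructose bisphosphatase, was low and lower in males (1.37 ± 0.145 CPM in males and 3.76 ± 0.381 CPM in females, log2 -1.46, SE 0.179, adjusted p = 0.000145). Glycolysis was split, with 6 of 14 genes higher, Gapdh (0.56) and Eno1 (0.55) among them, and 4 lower, the phosphofructokinase gene Pfkp (-0.76) among them. Of 25 genes of sterol and fatty acid synthesis 7 were higher and 3 lower. There the squalene synthase gene Fdft1 was lower (log2 -1.22, SE 0.138, adjusted p = 7.86e-05) while the isopentenyl isomerase gene Idi1 (log2 1.16, SE 0.144, adjusted p = 0.000166) and the decarboxylase gene Mvd (0.71) were higher.

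Of 37 genes of amino acid breakdown 14 were higher and 8 lower. Agxt2, the mitochondrial aminotransferase that clears dimethylarginine and beta-aminoisobutyrate, had 1480.4, 1550.4, 1648 and 1606 CPM in young males and 247, 351, 325 and 366 CPM in young females (log2 2.29, SE 0.117, adjusted p = 2.97e-07). It stood at 2.40 with the score as a covariate and passed. Haao of the kynurenine pathway was higher (log2 1.13, SE 0.0873, adjusted p = 5.97e-06). Hpd, the dioxygenase of tyrosine breakdown, was lower, with 795, 886, 772 and 1049 CPM in young males and 2178, 2122, 2285 and 2365 CPM in young females (log2 -1.35, SE 0.102, adjusted p = 4.78e-06). Amino acid carriers were about evenly split, at 8 higher and 7 lower of 27, with Slc6a13, a GABA and taurine carrier (log2 1.09, SE 0.110, adjusted p = 3.65e-05), and the glutamate carrier gene Slc1a1 (0.53) higher. Slc7a12, an amino acid carrier gene, was lower (303 ± 62.5 CPM in males and 843 ± 214 CPM in females, log2 -1.48, SE 0.195, adjusted p = 0.000239).

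Carriers of glucose, phosphate, sulfate and carboxylates were higher for 15 and lower for 6 of 31, with a median of 0.51. With the score 3 of them passed, all higher, and the median was 0.32. In 8 libraries with the score 0 of 31 passed by edgeR's test and 6 had an unadjusted p under 0.05. Slc34a1, which encodes the main phosphate carrier of the proximal tubule, NaPi-IIa, had 3144, 3397, 2665 and 2969.5 CPM in young males and 1373, 1404, 1829 and 1599 CPM in young females (log2 0.97, SE 0.112, adjusted p = 9.31e-05), and stood at 0.95 with the score as a covariate (adjusted p = 0.00219, and 0.65 in 8 libraries). Slc5a9, a mannose and glucose carrier, had 88.2, 92.7, 90.5 and 122 CPM in young males and 32.7, 24.6, 33.8 and 29.0 CPM in young females (log2 1.71, SE 0.127, adjusted p = 4.51e-06). The monocarboxylate carrier gene Slc16a4 averaged 444 ± 46.3 CPM in males and 154 ± 23.1 CPM in females (log2 1.52, SE 0.110, adjusted p = 3.52e-06). Slc2a4, the insulin-responsive glucose carrier GLUT4, was lower (log2 -1.67, SE 0.171, adjusted p = 4.06e-05), and at -0.62 it did not pass with the score as a covariate. Endocytosis receptors and brush border enzymes were higher for 7 and lower for 3 of 17. Cubn, which encodes the albumin receptor subunit cubilin, had 408, 351, 387 and 398 CPM in young males and 1069, 771, 1071 and 1067 CPM in young females (log2 -1.37, SE 0.109, adjusted p = 7.31e-06), with female replicate 2 below the other females. The peptidase genes Mep1a (-1.34) and Enpep (1.66) moved in opposite directions. Both passed with the score in 16 libraries and neither in 8 (adjusted p of 0.0551 and 0.0839).

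Markers of the thick ascending limb and collecting duct were lower in young males or did not pass, and markers of the distal convoluted tubule were higher or did not pass. Thick ascending limb markers were lower for 8 of 14 and higher for 0 (median -0.38). Slc12a1, which encodes the cotransporter NKCC2 blocked by loop diuretics, had 953, 769, 823 and 809 CPM in young males and 1983, 2050.2, 1542 and 1614 CPM in young females (log2 -1.10, SE 0.111, adjusted p = 3.54e-05). It stood at -0.57 (adjusted p = 0.544) with the score as a covariate. Ppp1r1a (-0.80) and the claudin gene Cldn19 (-0.80) were lower too. Principal cell markers were lower for 5 of 10 and higher for 0, among them the vasopressin-regulated water channel gene Aqp2, with 240.4, 239, 211 and 271 CPM in young males and 471, 459, 258 and 674 CPM in young females (log2 -0.95, SE 0.224, adjusted p = 0.00833). Female replicate 3, with the lowest inner medulla score of the females, was also the lowest female for Aqp2 and lay within the male range. Fxyd4, a regulator of the sodium pump, had a log2 of -1.62 (SE 0.347). With the score as a covariate Aqp2 was at -0.14 and Fxyd4 at -0.56. Intercalated cell markers were lower for 4 of 15 and higher for 0, including the anion exchanger gene Slc4a1 (-0.98) and Aqp6 (-0.73). Of 6 distal convoluted tubule markers 2 were higher and 0 lower. Slc12a3, which encodes the thiazide-sensitive cotransporter NCC, had 753, 963, 717 and 845 CPM in young males and 395, 476, 516 and 667 CPM in young females (log2 0.67, SE 0.149, adjusted p = 0.00603), and the kinase gene Wnk1 had a log2 of 0.41, with groups that overlapped. Neither passed with the score (0.38 and 0.21, adjusted p of 0.46 and 0.686). The call of Wnk1 was also lost with library totals alone and without male replicate 2 or 4 or female replicate 1 or 2.

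Among aquaporins 2 of 7 were higher, with Aqp7 of the proximal tubule at 0.34 (SE 0.0537), and 4 were lower. Of 29 sodium carriers along the nephron 6 were higher (20.7%) and 8 lower (27.6%), against 15.3% and 16.1% of all genes tested. Among the higher ones was the potassium-chloride cotransporter gene Slc12a7 (0.41). Potassium and chloride channels were higher for 2 (12.5%) and lower for 4 (25%) of 16. Cftr, the cAMP-regulated chloride channel, had 28.9, 21.6, 31.5 and 38.7 CPM in young males and 0.142, 0.244, 0.709 and 0.534 CPM in young females (log2 6.16, SE 0.303, adjusted p = 2.27e-07). The potassium channel gene Kcnk1 was lower (-0.98) and passed with the score as a covariate (-0.86), but not in 8 libraries (adjusted p = 0.684). Of 14 calcium, magnesium and vitamin D genes 3 were lower (21.4%) and 0 higher. The values of 2 of these, Kl, the klotho gene (-0.30), and Egf (-0.27), overlapped between the sexes. Neither passed with the score. The call of Kl was also lost without male replicate 1, 3 or 4 or female replicate 1 or 3, and that of Egf without any of these or female replicate 4.

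Proximal tubule markers of the S1 and S2 segments were higher for 7 and lower for 1 of 15 (median 0.56), and those of S3 higher for 3 and lower for 5 of 13 (median 0.02). With the score the S1 and S2 median was 0.20 (3 higher, 1 lower) and the S3 median 0.17 (2 higher, 2 lower). In 8 libraries with the score the medians were -0.10 and 0.083. There 0 of the S1 and S2 markers passed by edgeR's test, and 2 of the S3 markers passed, as lower. The difference between these lists was not tested. Of 13 endothelial markers 9 were lower in young males, and 1 of them passed as lower with the score. Vwf, which encodes the clotting protein von Willebrand factor, had 31.1, 32.3, 31.0 and 35.5 CPM in young males and 177, 115, 224 and 146 CPM in young females (log2 -2.35, SE 0.176, adjusted p = 4.77e-06) and stood at -2.79 with the score as a covariate. Esam, a junction gene of the endothelium, was at -0.81 and did not pass with the score (-0.39). Podocyte markers were lower for 4 of 15, including Plce1 (log2 -1.80, SE 0.124, adjusted p = 2.58e-06), which passed with the score in 16 libraries and not in 8 (adjusted p = 0.0734). Fibroblast, pericyte and muscle markers were lower for 3 of 11, including the proteoglycan gene Dcn, with 47.8, 46.3, 44.4 and 45.9 CPM in young males and 168, 219, 152 and 115 CPM in young females (log2 -1.83, SE 0.159, adjusted p = 1.33e-05), and Col3a1 (-0.96), whose groups overlapped and whose call was lost with the score and without male replicate 3.

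Genes of steroid and growth hormone signalling were higher for 4 and lower for 5 of 20, shares near the 15.3% and 16.1% of all genes tested. Prlr, the prolactin receptor gene, had 120.2, 120.5, 151 and 148 CPM in young males and 9.66, 13.8, 9.93 and 13.1 CPM in young females, a fitted difference of 11.6-fold (log2 3.54, SE 0.136, adjusted p = 3.77e-08). Esr1, the estrogen receptor alpha gene, had 78.9, 74.8, 88.9 and 61.9 CPM in young males and 21.7, 25.7, 18.1 and 15.8 CPM in young females (log2 1.91, SE 0.151, adjusted p = 6.81e-06). Igf1, the insulin-like growth factor gene, was low and lower in males, with 2.54, 1.85, 2.56 and 1.97 CPM in males and 8.09, 8.62, 10.99 and 6.94 CPM in females (log2 -1.94, SE 0.185, adjusted p = 2.6e-05). With the score as a covariate these 3 genes stood at 4.55, 2.25 and -1.92, and all 3 passed. In 8 libraries with the score Esr1 and Igf1 did not pass (adjusted p of 0.0886 and 0.126). Nuclear receptors of metabolism were higher for 5 (22.7%) and lower for 7 (31.8%) of 22. The orphan receptor gene Hnf4g was higher (log2 0.96, SE 0.0896, adjusted p = 2.26e-05). Nr1i3, the xenobiotic receptor CAR, was lower and near the floor (0.119 ± 0.0344 CPM in males and 1.47 ± 0.620 CPM in females). Esrrb, an orphan receptor gene, was lower as well (-0.91).

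In the renin-angiotensin, endothelin and nitric oxide group 4 of 20 genes were higher (20%) and 6 lower (30%), against 15.3% and 16.1% of all genes tested. Agt, which encodes angiotensinogen, had 97.3, 91.7, 98.9 and 83.3 CPM in young males and 8.31, 12.4, 7.37 and 11.3 CPM in young females (log2 3.24, SE 0.144, adjusted p = 1.1e-07). Enpep, the aminopeptidase that cleaves angiotensin II, had 359.5, 382, 400.3 and 447 CPM in young males and 106, 116, 138 and 142 CPM in young females (log2 1.66, SE 0.105, adjusted p = 1.31e-06). Hpgd, which inactivates prostaglandins, averaged 92.2 ± 16.3 CPM in males and 7.44 ± 2.01 CPM in females (log2 3.64, SE 0.182, adjusted p = 2.55e-07). The 3 genes passed with the score in 16 libraries, at 3.53, 1.76 and 4.20, and Enpep did not in 8 (adjusted p = 0.0839).

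The series title names the cGAS-STING pathway, which senses DNA in the cytosol. Cgas, the gene of the sensor, had 3, 11, 7 and 2 counts in the young male libraries and 8, 6, 15 and 14 counts in the young female libraries, too few for the 8-library test. In the model of all 16 libraries its log2 was -0.95 (SE 0.413, adjusted p = 0.0909). Tmem173, the older symbol of Sting1 used in the count table, had 2.00, 1.93, 2.66 and 3.23 CPM in young males and 6.46, 3.66, 2.69 and 5.54 CPM in young females (log2 -0.90, SE 0.287, adjusted p = 0.0343). Its call was lost with limma-voom, in 5 of the 8 fits that left out a library and with the score as a covariate (-0.31). Of 14 tested DNA sensing genes 2 were higher and 2 lower (14.3% each), near the 15.3% and 16.1% of all genes tested. The higher ones were Rnaseh2b (log2 0.73, SE 0.0745, adjusted p = 4.12e-05) and Enpp1 (0.20). The call of Enpp1 was lost with library totals alone, with the score and without male replicate 2 or 3 or female replicate 1 or 2. Of 37 interferon-stimulated genes 2 were higher and 8 lower (median -0.26), with Parp14 at 0.75 and Ifitm3 at -0.64, and 0 passed with the score as a covariate by edgeR's test, where 5 had an unadjusted p under 0.05. Of 15 complement genes 4 were higher and 5 lower, including the complement inhibitor gene Cd55 (log2 -1.35, SE 0.156, adjusted p = 9.8e-05) and C4b (0.98), which may share reads with C4a. Macrophage and monocyte markers were lower for 1 of 14, Cd14 (-1.13). Of 7 T, NK and B cell markers 0 passed with edgeR, DESeq2 or limma-voom, and 0 had an unadjusted p under 0.05 with edgeR. The smallest p was that of Jchain (adjusted p = 0.355). Of 16 immediate early genes 0 passed with edgeR, where 3 had an unadjusted p under 0.05 and Klf6 the smallest (adjusted p = 0.0718), and 1 was lower with DESeq2 and 1 with limma-voom.

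Of 20 tubule injury genes 2 were higher and 6 lower. Sox9, a transcription factor gene of tubule repair, had 65.1, 58.9, 65.6 and 42.2 CPM in young males and 4.54, 5.20, 5.74 and 7.81 CPM in young females (log2 3.31, SE 0.184, adjusted p = 5.07e-07), and Anxa2 was lower (log2 -0.99, SE 0.0822, adjusted p = 9.34e-06). Both passed with the score in 16 libraries, at 3.26 and -0.85, and Anxa2 did not in 8 (adjusted p = 0.389). Of 4 tested adipose markers 1 was higher, the lipid droplet gene Cidec (log2 1.85, SE 0.192, adjusted p = 4.57e-05), and 1 lower, the fatty acid binding protein gene Fabp4 (-2.15, and -0.07 with the score). Adipoq (adjusted p = 0.105) and Lipe (adjusted p = 0.0553) did not pass, and the other 5 of its 9 members, Lep among them, were too low to test. The single adrenal cortex marker that could be tested, Cyp21a1, had 1.58 ± 0.219 CPM in males and 1.38 ± 0.517 CPM in females (adjusted p = 0.613).

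Several of the widest differences lay in genes outside these lists. Dhrs7l1, a short-chain dehydrogenase gene, had 841, 760.4, 956 and 1267 CPM in young males and 1.56, 1.22, 1.06 and 1.80 CPM in young females (log2 9.38, SE 0.231, adjusted p = 2.41e-09). Ceacam20 had 756 counts in young males and 2 in young females, a ratio of 355 after scaling to library size (exact 95% interval 98.0 to 2939). Melk, a kinase gene of dividing cells, averaged 42.8 ± 5.85 CPM in males and 0.344 ± 0.385 CPM in females (log2 7.003, SE 0.336, adjusted p = 1.86e-07). Cacng5, a calcium channel gamma subunit gene, averaged 303 ± 87.5 CPM in males and 4.76 ± 1.87 CPM in females, and Gng7, a G protein gamma subunit gene, averaged 115 ± 32.2 CPM in males and 2.01 ± 0.396 CPM in females. For both, male replicate 4 was the lowest male. Mpped1 (7.86) and Slc35f1 (6.64) were also among the 12 largest in this direction. Of the genes lower in young males, the collagen gene Col24a1 had 0.267, 0.386, 0.163 and 0.0787 CPM in males and 80.4, 45.4, 49.4 and 53.0 CPM in females (log2 -7.96, SE 0.313, adjusted p = 4.38e-08). Stc2, which encodes the hormone stanniocalcin-2, had 0.401, 0.695, 0.924 and 1.18 CPM in young males and 43.8, 60.2, 58.2 and 55.1 CPM in young females (log2 -6.08, SE 0.201, adjusted p = 1.66e-08). Adh1, the class I alcohol dehydrogenase, had 31.0, 39.8, 30.6 and 66.8 CPM in young males and 644, 621, 962 and 1736 CPM in young females (log2 -4.56, SE 0.394, adjusted p = 1.25e-05), uneven among the females with replicate 4 highest. Armc3 (-5.09), Igfbpl1 (-4.89), Ly6al (-4.69), the tenascin-R gene Tnr (-4.66) and the hemidesmosome collagen gene Col17a1 (-4.50) completed that end. With the score in 16 libraries all 24 genes of the 2 ends passed except Slc14a2. In 8 libraries Slc14a2, Igfbpl1, Tnr and Adh1 did not pass (adjusted p of 0.966, 0.311, 0.0527 and 0.12).

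The sex difference of the young was set against that of the old rats by the difference of the 2 differences in 1 model of all 16 libraries (young minus old). It was positive for 2697 and negative for 2695 of 13925 genes (19.4% each, 38.7% together). Between old males and old females 49.3% of genes passed in the same model. Of the 2243 genes that passed both for young minus old and between young males and young females, 553 had a larger difference in the young with the same sign in the old, 302 a smaller one, and 1388 had the opposite sign in the old. Age is partly tied to the label identifiers, which start with DS in all young and in 3 old libraries and with OP in the other 5. With that prefix as a covariate the counts were 2744 and 2728.

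For several tubule genes the sex difference was wide in the young and small in the old. Slc22a2 stood at 3.75 in the young and 0.32 in the old (young minus old 3.44, adjusted p = 6.01e-05), and Rdh16 at 3.41 and 0.43 (2.99, adjusted p = 8.01e-07). Slc16a4 was higher in males in the young (1.52) and had the opposite sign in the old (-0.79, adjusted p of the difference = 2.36e-06). Cyp24a1, the vitamin D hydroxylase gene, had 133, 112, 133 and 123 CPM in young males and 4.83, 10.2, 15.0 and 33.7 CPM in young females, a log2 of 2.96, against -1.18 in the old (adjusted p = 1.19e-05). Gc, the vitamin D binding protein gene, had 116, 113, 130.1 and 140.1 CPM in young males and 1.99, 2.76, 2.27 and 2.07 CPM in young females (5.78 in the young and 1.83 in the old). Mlc1 and the annexin gene Anxa13 also differed more in the young (5.65 and 5.80, against 1.34 and 1.88 in the old). The female-high carriers Slc22a7 and Slc22a13 kept their direction in the old and differed more there (-6.87 and -7.21, adjusted p of the difference 0.00175 and 0.00564). For Cyp2c11, Slc22a22, Dhrs7l1 and Cftr the difference between the ages did not pass (adjusted p of 1, 0.553, 0.097 and 0.455). Cyp2c11 had 0 counts and Slc22a22 too few in the young females for the size of the difference to be read. The test therefore cannot tell whether their sex difference is the same at both ages.

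Other genes had a more negative difference in the young than in the old. Spp1, which encodes osteopontin, had 311, 209, 384 and 244 CPM in young males and 926, 916, 639.8 and 589.8 CPM in young females, a log2 of -1.42, against 5.53 in the old (adjusted p of the difference = 3.83e-08). Tnc, a matrix gene of injured tissue, and the adenosine receptor gene Adora1 were lower in males in the young (-2.10 and -1.38) and higher in the old (2.05 and 2.71). C4b was at 0.98 in the young and 6.62 in the old (adjusted p = 1.41e-07). Col24a1 was lower in males at both ages (-7.96 in the young and -3.03 in the old). Of 37 interferon-stimulated genes 36 and of 20 injury genes 17 passed with a lower difference in the young than in the old. Of 34 nuclear respiratory chain genes 33 passed with a higher one. Over all genes tested in that comparison 19.4% passed in each direction. These counts depend on the scaling. With library totals alone 864 genes were positive and 6520 negative, and the members of the lists were not counted in that fit.

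**Figure D5:**
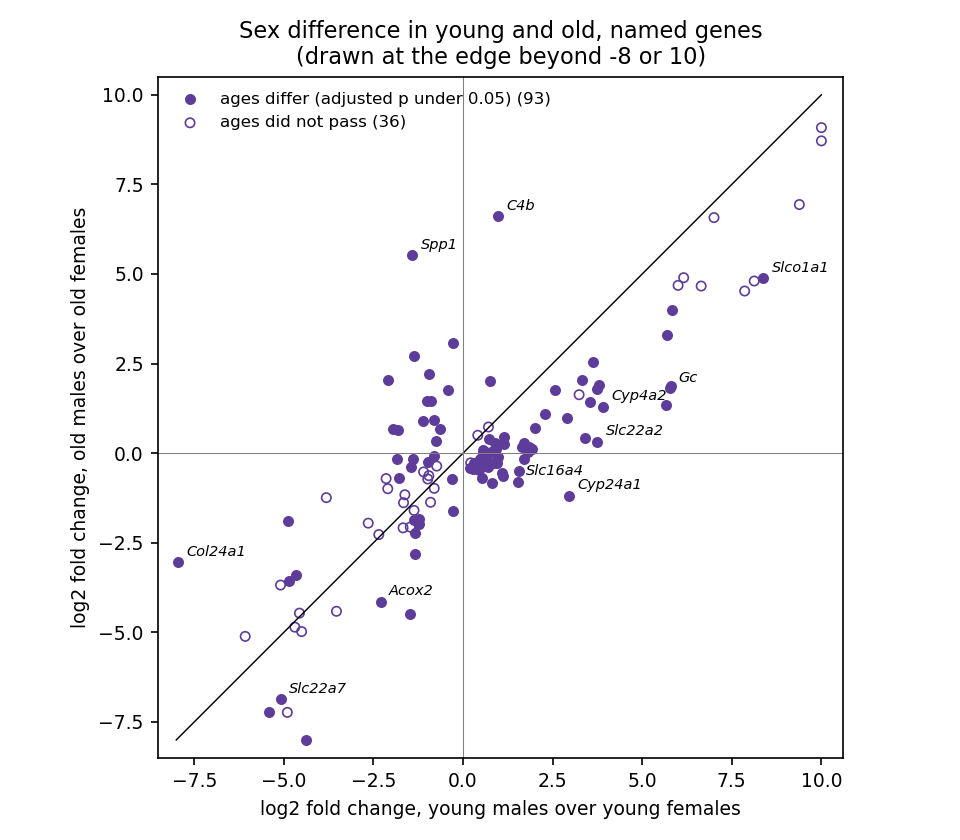
Log2 fold change of males over females in the young (8-library fit, x axis) and in the old (16-library fit, y axis) for 129 named genes, with the line of equal values. Filled points are the 93 genes whose 2 differences differed by the test of young minus old; those below the line are more positive in the young (Slc22a2, Cyp24a1, Slc16a4) and those above it more negative (Spp1, C4b).

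The authors' deposited table of young males against young females lists 1002 genes, 36 of them on X or Y. Of the other 966, 928 (96.1%) passed here with at least a 2-fold difference, and these make up 92.2% of the 1006 genes that did so. The direction was the same for all shared genes, with 0 of opposite sign.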

How the data were processed

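Messenger RNA of rat kidney was sequenced from 16 stranded libraries, per the labels' protocols. The authors deposited whole-number counts per gene, RPKM values, and comparison tables with log2 fold changes and p-values, per the file headers. The submitters' processing notes name edgeR 3.8.6 and the build Rnor_6.0, and the strand setting of counting is not given in the sources used here. RPKM values followed from the counts and were not tested. Counts of genes not on X or Y were filtered with filterByExpr, scaled with TMM factors and tested with edgeR 4.0.16 (quasi-likelihood, Benjamini-Hochberg adjustment, R 4.3.3) over the 8 young libraries, after checks on simulated data. CPM use TMM factors. Alternatives used DESeq2 1.42.0, limma 3.58.1 and other scalings, filters and covariates. The genes and the 48 gene lists were chosen with earlier results of these data known. Named genes were the 12 largest called differences in each direction (mean of at least 5 CPM in a sex, no overlap), the 3 called members with the smallest p of each metabolism, transport, medulla or hormone list, 2 of each other list (1 where none passed), Cgas, Sting1, Slc14a2, Prlr, Cyp2c11 and Slco1a1, and 5 genes per direction whose sex difference differed between ages. Some genes are not reported here. Bcl6, Slc6a12, Akr1b1, Epha7, Cryab, Adipoq, Lipe and Lep were named after their values were seen. A ratio of sums of counts carries an exact interval for counting error only.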

Additional observations from a re-analysis of the deposited data

Results flagged for a closer look

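In 18 of 259 groups of 4 young libraries checked, 1 library lay far from the other 3, with the gap to its nearest neighbour divided by the range of the group above 0.829. Chance alone flags about 1 in 20 groups. Among young males replicate 4 was the one apart for Ceacam20 (replicate 4 lowest, 0.836), Pecr (replicate 4 highest, 0.910), Gsta2 (replicate 4 highest, 0.835), Slc5a9 (replicate 4 highest, 0.866), Fxyd4 (replicate 4 lowest, 0.848), Esam (replicate 4 highest, 0.930), Cyp1a1 (replicate 4 highest, 0.986) and Anxa13 (replicate 4 highest, 0.942). Other male libraries were apart for Pdk2 (replicate 3 lowest, 0.834), Mvd (replicate 1 highest, 0.959) and Adora1 (replicate 2 lowest, 0.845). Among young females the values were those of Gng7 (replicate 1 lowest, 0.837), Slc22a13 (replicate 3 lowest, 0.871), Sult1b1 (replicate 3 highest, 0.864), Slc16a4 (replicate 3 highest, 0.863), Cubn (replicate 2 lowest, 0.988), Rnaseh2b (replicate 3 highest, 0.838) and inner medulla score (replicate 3 lowest, 0.833). The Cyp1a1 value of male replicate 4 was 11.9 CPM, against 0.309 to 0.468 CPM in the other 3 males.

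The sex difference itself differed between young and old rats, by the test of young minus old in edgeR's quasi-likelihood fit of 16 libraries, for 2697 genes in the positive and 2695 in the negative direction. Of 129 named genes 93 were among them, 67 positive and 26 negative, and the values below are young minus old on the log2 scale. The highest were Cyp1a1 5.83, Mlc1 4.33, Cyp24a1 4.16, Gc 3.97, Anxa13 3.94, Slco1a1 3.50, Slc22a2 3.44, Slc7a12 3.02, Rdh16 2.99, Cyp4a2 2.63, Cyp2d5 2.42 and Slc16a4 2.33. Next came Prlr 2.12, Gsta2 2.08, Hsd17b1 1.99, Cyp2d1 1.95, Slc5a9 1.90, Sult1b1 1.89, Gng7 1.86, Acox2 1.86, Slc22a13 1.82, Slc22a7 1.79 and Esr1 1.79. They were followed by Akr7a3 1.79, Haao 1.77, Cidec 1.70, Slc6a13 1.66, Tkfc 1.65, Enpep 1.502, Mep1a 1.49, Acsm3 1.43, Egf 1.35, Abcg2 1.32, Sox9 1.28 and Hnf4g 1.25. Lower in that order were Slc1a1 1.23, Agxt2 1.19, Acadm 1.16, Slc34a1 1.10, Hpgd 1.09, Pc 1.09, Mt-nd4 0.91, Idi1 0.90, Cd55 0.89, Slc12a3 0.89, Mt-nd4l 0.88 and Ndufa4 0.88. Smaller still were Slc37a4 0.82, Pecr 0.80, Prdx1 0.77, Fdft1 0.77, Ndufa10 0.72, Suclg2 0.72, Gpx1 0.69, Wnk1 0.65, Mt-co2 0.65, Acox3 0.64, Enpp1 0.63 and Cyp4a8 0.63. At the low end were Aqp7 0.62, Sdhc 0.61, Pdk2 0.58, Eno1 0.55, Hpd 0.51, Gapdh 0.48, Kl 0.43 and Rnaseh2b 0.35. The most negative were Spp1 -6.94, C4b -5.63, Col24a1 -4.93, Tnc -4.13, Adora1 -4.08, Jchain -3.35, Col3a1 -3.15, Igfbpl1 -3.01, Igf1 -2.62, Dcn -2.45 and Anxa2 -2.43. Less so were Tmem173 -2.34, Klf6 -2.18, Cd14 -2.03, Cldn19 -1.70, Fst -1.67, Ifitm3 -1.29, Cyp4b1 -1.28, Tnr -1.28, Parp14 -1.26, Abcc5 -1.21 and Pfkp -1.10. The remaining negative values were Plce1 -1.08, Fbp2 -1.08, Esam -0.72 and Kcnk1 -0.72. Several of these calls were lost when 1 library was left out. That of Slco1a1 (adjusted p = 0.0489) was lost under 19 of 28 alternatives, 13 of them fits that left out 1 library (any young library, any old female or old male replicate 3). That of Cyp1a1 was lost with limma-voom and without young male replicate 4 or old male replicate 1, 2 or 3, with values of 2.91 to 8.13. Leaving out 1 library also ended the calls of Hpd and Rnaseh2b in 8 of 16 such fits each, Hpgd and Kl in 7 and Tnr in 2.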

How the results depend on the processing

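The counts of genes higher and lower in young males stayed within 1.5 times of 2007 and 2118 with RLE and upper-quartile factors, DESeq2, limma-voom, other low-count filters, all 16 libraries in 1 model, and X and Y genes kept. With library totals alone they were 1065 and 3928, with the median of all genes at -0.17. Young minus old then gave 864 and 6520 genes, with a median of -0.37, against 0.0123 with TMM factors. Calls higher in males made up 48.7% with TMM factors, 42.3% with upper-quartile factors and 21.3% with totals alone. An adjusted p under 0.01 left 1205 and 1246, and 1721 positive young minus old. Adjusting for the inner medulla score within the 8 libraries the counts were 89 and 55 (88 and 54 at 2-fold or more), and in 16 libraries 671 and 609 (327 lower at 2-fold or more). The score difference was -2.15 without Bcl6.

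Leaving out 1 library at a time gave 1620 to 2013 higher and 1637 to 2125 lower genes, 422 to 487 and 523 to 633 at 2-fold or more, and score differences of -1.88 to -1.56. Young minus old then gave 2350 to 2692 positive and 2515 to 2811 negative genes.

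Signs that turned, cause not tested, were as follows. With the score in 8 libraries they were Mt-co2 -0.16, Aqp6 0.11, Psca 1.88, Aqp2 0.0575, Cyp21a1 -0.78, Klf6 0.47, Enpp1 -0.0334 and Tmem173 0.37. With it in 16 they were Slc14a2 0.48, Upk1a 0.17, Jchain 0.54 and Cyp21a1 -0.33. With totals alone Rnaseh2b stood at -0.0329 for young minus old.

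The main fit did not pair the sexes by replicate number. Deviations of same-numbered libraries correlated at 0.146, 0.029, -0.012 and 0.240 across genes, and those of unlike-numbered libraries at -0.172 to 0.105. The highest value was that of both replicate 4 libraries, and what they share was not tested. With a replicate block 2137 genes were higher and 2212 lower (2786 and 2704 for young minus old). Cgas held too few counts for the 8-library test.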

Other observations

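Genes of the X chromosome were left out of the comparison, and members of the lists that lie there also differed between the sexes. In a fit that kept X and Y genes, 51 of 420 tested X genes were higher and 81 lower in young males by edgeR's quasi-likelihood test (31.4% together). Fgf13, of the fibroblast growth factor family, averaged 13.7 ± 1.74 CPM in young males and 3.01 ± 0.138 CPM in young females (SD, n = 4 each, log2 2.19). The tight-junction gene Cldn2 of the proximal tubule (0.64), the glycolytic gene Pgk1 (0.42), the calcium-binding protein gene S100g (0.68) and the sterol enzyme gene Nsdhl (0.26) passed in the same direction.

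Pdha1, which encodes a subunit of pyruvate dehydrogenase, was lower, with 393 ± 16.5 CPM in young males and 783 ± 57.3 CPM in young females (log2 -0.99, adjusted p = 2.64e-06). Sts, steroid sulfatase (-0.93), the brush border peptidase gene Xpnpep2 (-0.57), the vasopressin receptor gene Avpr2 (-0.63), Hsd17b10 (-0.47) and Timp1 (-0.54) passed as lower too. Clcn5, Atp6ap2, Cltrn, Clcn4, Prdx4 and Cfp did not pass.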
